A study of Mus musculus with 23 samples.

Results

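The nuclear genes of the mitochondrial respiratory chain were followed through the livers of 15 mice. They were chosen by symbol: names beginning with Nduf followed by a, b, c, s or v and a digit, with Uqcr or Atp5, or with Cox followed by a digit from 4 to 8, and the names *Sdha*, *Sdhb*, *Sdhc* and *Sdhd*. Of the 27179 genes counted, 93 had such a symbol, and the 88 with a read in any mouse are the members. Complex I accounted for 39 of them, complex II for 4, complex III for 9, complex IV for 18 and complex V for 18. A mean of at least 1 CPM (counts divided by the library size, adjusted by the TMM method, with 0.0001% of a library as the unit) over all 15 mice was reached by 75 members (35, 3, 7, 12 and 18 per complex), among 12316 such genes in all. *Ndufa4*, *Ndufa4l2* and *Cox7a2l* were placed with complex IV.

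The respiratory chain sits in the inner mitochondrial membrane. Complex I takes electrons from NADH and complex II takes them from succinate, ubiquinone carries them to complex III, cytochrome c carries them on to complex IV, and oxygen receives them there, while the protons pumped on the way drive ATP synthesis by complex V. Hepatocytes are rich in mitochondria and use the chain to burn fatty acids and amino acids and to power the synthesis of glucose and urea.

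Poly(A) RNA was sequenced from pieces of liver without visible tumors, all from females: 6 Ctrl mice, 6 of the group ABpI F/+, and 3 (BG183, BG90 and BG38) of the group ABpI F/F. All 3 groups carried the Alb-Cre transgene, which acts in hepatocytes, and 2 floxed *Trp53* alleles (TRP53 flx/flx), so that *Trp53* was floxed in mutants and controls alike. Ctrl mice had wild-type *Braf* and 1 floxed *Icmt* allele (ICMT flx/+), ABpI F/+ mice added 1 Cre-activated *Braf* knock-in allele that encodes V600E (Braf CA/+) to the same *Icmt* genotype, and ABpI F/F mice had that *Braf* allele with both *Icmt* alleles floxed (ICMT flx/flx). The series design gives these *Braf* genotypes, whereas the sample labels of both mutant groups read BRAF +/+. Recombination was not measured by cell type. The strain label names B6 lines with the ICMT tm1Mbrg, Trp53tm1Brn and Albcre 21Mgn alleles for the Ctrl mice named malpa, and a further cross with a line carrying Braftm1Mmcm for the Ctrl mouse BG3 and every mutant. Strain label and group therefore differ together in 5 of the 6 Ctrl mice, and the effects of strain and of genotype cannot be told apart in those comparisons.

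Total counts per mouse ran from 24742910 to 32262649 (median 29101713). TMM scaling factors ran from 0.846 (BG88) to 1.24 (BG38). The transcript of *Alb* alone took 8.23% to 11.1% of counts in Ctrl, 12.0% to 15.8% in ABpI F/+ and 12.4% to 18.1% in ABpI F/F. *Icmt* (Entrez 57295, chr4:152297214-152307126) checks the labels: it had 30.8 ± 2.72 CPM in Ctrl (SD, n = 6), 32.7 ± 3.49 in ABpI F/+ (n = 6) and 15.8 ± 0.711 in ABpI F/F (n = 3). Every ABpI F/F mouse lay below every other mouse for *Icmt*, and the log2 fold change of ABpI F/F against Ctrl was -0.96 (SE 0.13, adjusted p = 8.5e-06), against 0.09 (adjusted p = 0.68) for ABpI F/+. The reads come from all cells of a liver piece.

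Several libraries stood apart for these genes, and for the results that follow the larger changes without them are given too. A deviation is the median, over genes, of a mouse's log2 CPM minus the Ctrl mean of each gene. For the 75 members at 1 CPM or more it was 0.54 in the Ctrl mouse BG3 and 0.28 in the Ctrl mouse malpa387, against -0.25 to -0.13 in the other 4 Ctrl mice. BG3 and malpa387 were the 2 highest Ctrl mice for 72 of the 75 members, and for 24.7% of all genes at that level. Transcripts under 800 nt (479 genes, of which 37 are members) deviated by 0.50 and 0.28 in these same mice, and by -0.21 to -0.16 in the other 4 Ctrl mice.

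Among the ABpI F/F mice, BG38 was the lowest for 72 of the 75 members (38.7% of all genes), with a deviation of -1.21 against -0.66 in BG90 and -0.50 in BG183. These 3 mice differed in age, no source used here ties an age to a mouse name, and age was not tested. The ABpI F/+ mice lay between -0.51 (BG40) and 0.01 (BG88). A clock score, the mean log2 CPM of *Bmal1*, *Clock*, *Npas2* and *Cry1* minus that of *Nr1d1*, *Nr1d2*, *Per1*, *Per2*, *Per3*, *Dbp*, *Tef*, *Hlf* and *Ciart*, was -0.92, -0.12 and 1.36 in BG183, BG38 and BG90. It was 0.05 in malpa387 and -5.41 to -3.87 in the other 11 mice, so the ABpI F/F group and 1 Ctrl mouse differed from the rest in their clock genes. Collection times are not given in the sources used here, and the part of short transcripts and of the clock in the results was not tested beyond the alternative fits named with them.

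**Figure D1:**
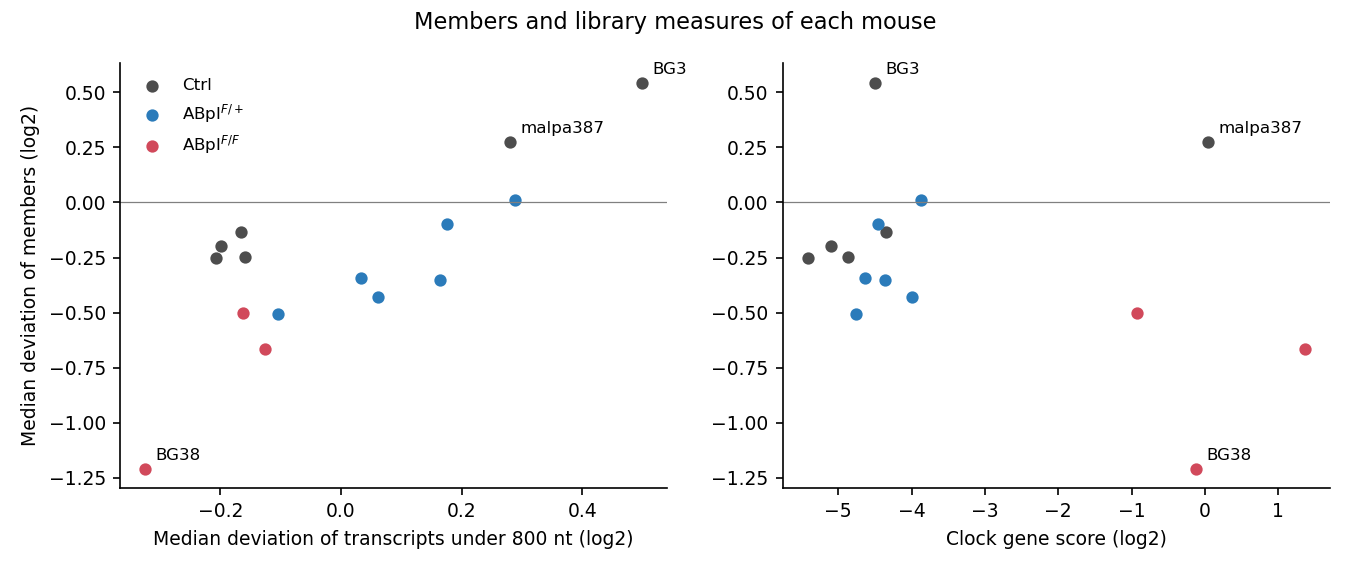
Median deviation of the 75 members from the Ctrl mean (log2) in each of 15 mice, plotted against the deviation of all transcripts under 800 nt (log2) and against the clock score (log2). BG3 and malpa387 lie at 0.54 and 0.28 on the member axis, and BG38 at -1.21.

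Markers of hepatocytes set the tissue. Their summed level (8 genes, *Alb* the most abundant) was 115562 ± 11413 CPM in Ctrl (SD, n = 6), 197670.0 ± 23939 in ABpI F/+ (n = 6) and 173813 ± 47073 in ABpI F/F (n = 3). The genes of that list went both ways: 4 rose and 3 fell in ABpI F/+ (median 0.45), and 3 rose and 3 fell in ABpI F/F (median -0.26), with *Cyp2e1* the lowest in both. Stellate cell and fibroblast markers (6 genes, *Dcn* the most abundant) summed to 159 to 219 CPM in Ctrl, 38.3 to 82.8 in ABpI F/+, and 179.8, 143 and 244 in BG183, BG90 and BG38. Of these 6 genes 5 fell in ABpI F/+, and the ABpI F/+ mice lay below all others. Macrophage markers (6 genes, *Clec4f* the most abundant) summed to 197 to 277 CPM in Ctrl, 85.7 to 133 in ABpI F/+, and 161, 300.3 and 342 in BG183, BG90 and BG38. Here 4 of 6 genes fell in ABpI F/+. Cholangiocyte markers (6 genes, *Spp1* the most abundant) summed to 35.8 to 68.2 CPM in Ctrl, 30.1 to 145 in ABpI F/+, and 204, 778 and 1149 in BG183, BG90 and BG38. Every ABpI F/F mouse was above every other mouse, 5 of the 6 genes rose, and BG38, the mouse with the lowest members, was the highest.

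Endothelial markers (5 genes, *Stab2* the most abundant) summed to 124 ± 21.3, 94.6 ± 29.2 and 152 ± 33.2 CPM in Ctrl, ABpI F/+ and ABpI F/F (SD, n = 6, 6 and 3), and erythroid markers (5 genes, *Hba-a1*) to 73.4 ± 41.6, 167 ± 63.6 and 86.0 ± 25.7. Lymphocyte markers (6 genes, *Cd79a*) summed to 3.59 ± 1.01, 1.06 ± 0.589 and 4.91 ± 2.58 CPM, pancreas markers (6 genes, *Cela1*) to 18.8 ± 5.49, 11.9 ± 2.05 and 23.7 ± 4.53, and adipocyte markers (6 genes, *Cidec*, with *Lep* at 0) to 2.68 ± 0.537, 2.57 ± 1.07 and 1.78 ± 0.754. Muscle and testis carry isoforms of some members, and their markers were near 0: 9 muscle genes (*Tnnt2* the most abundant, *Ckm* and *Myh6* at 0) summed to 0.429, 0.360 and 0.823 CPM, and 5 testis genes (*Ldhc*, with *Prm1*, *Prm2*, *Tnp1* and *Pgk2* at 0) to 0.00518, 0.0120 and 0. The part of these cell types in the results was not tested, and fewer hepatocytes in a piece cannot be told apart from less RNA per hepatocyte.

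Respiratory chain transcripts as a whole had lower group means in both mutant groups. Their summed level was 10516 ± 2040.1 CPM in Ctrl (SD, n = 6), 8480.0 ± 1199 in ABpI F/+ (n = 6) and 5862 ± 1254 in ABpI F/F (n = 3), which is 80.6% and 55.7% of Ctrl. The Ctrl mice ran from 8943 (malpa459) to 13936 (BG3), the ABpI F/+ mice from 7399 (BG40) to 10288 (BG88), and BG38, BG90 and BG183 had 4559, 5968 and 7060.1 CPM. In these TMM-scaled CPM all ABpI F/F mice were below all Ctrl and all ABpI F/+ mice, whereas ABpI F/+ and Ctrl overlapped. Both statements depend on the scaling. As a share of total counts, BG183 had 0.706%, above BG40 of ABpI F/+ at 0.688%. The highest ABpI F/+ mouse by that share, BG55, had 0.896%, below the lowest Ctrl mouse, malpa459, at 0.949%. Complexes I, III, IV and V kept 79.9%, 84.7%, 90.2% and 80.3% of the Ctrl mean in ABpI F/+, and complex II kept 60.6%. Within complex II it was *Sdha* that had a log2 fold change of -1.10 in ABpI F/+, while *Sdhb* and *Sdhc* had -0.26 and -0.30. The low sum of complex II is therefore not read as a change of the whole complex. In ABpI F/F the complexes were closer to each other, at 56.6%, 50.3%, 55.1%, 57.3% and 56.0% for I to V. In CPM, complex II was the sum without overlap in ABpI F/+, with 479 to 636 CPM against 792 to 1118 in Ctrl. As shares of total counts, the sums of complexes I, II, III and V did not overlap between ABpI F/+ and Ctrl, and that of complex IV did. Set against the 4 Ctrl mice other than BG3 and malpa387, the sum over all members was 91.6% for ABpI F/+ mice and 63.3% with both *Icmt* alleles floxed. Complexes I to V then kept 93.5%, 64.6%, 96.5%, 110.1% and 88.1% in ABpI F/+, and 66.2%, 53.7%, 62.9%, 69.9% and 61.4% in ABpI F/F. The mean complex IV sum of ABpI F/+ thus lay above that of those 4 Ctrl mice, but the sum includes *Cox7a2l*. With all 6 Ctrl mice, *Cox7a2l* had a log2 fold change of 1.48 in ABpI F/+. The other 11 of the 12 complex IV members at 1 CPM or more were below 0 there. A sum without *Cox7a2l* was not taken. Without BG3 alone, complexes III and IV kept 90.1% and 99.3% in ABpI F/+. Sums were not tested, since a few abundant genes dominate them.

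**Figure D2:**
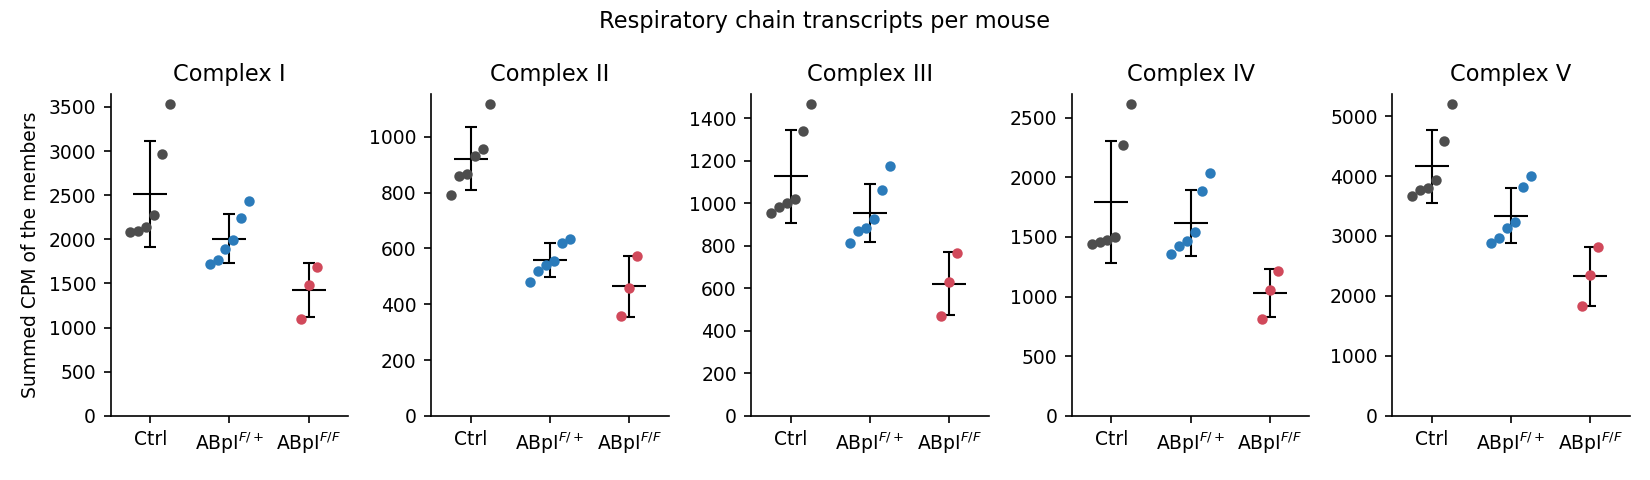
Summed CPM of the members of complexes I to V in each mouse, with the group mean and SD (Ctrl n = 6, ABpI F/+ n = 6, ABpI F/F n = 3). The ABpI F/F means are 50.3% to 57.3% of Ctrl, and the ABpI F/+ mean of complex II is 60.6%. In that complex *Sdha* had a log2 fold change of -1.10 in ABpI F/+, and *Sdhb* and *Sdhc* had -0.26 and -0.30.

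Each gene was compared between groups in 1 edgeR fit over all 27179 genes, and a gene rose or fell where its Benjamini-Hochberg adjusted p was under 0.05. The comparison of ABpI F/+ with Ctrl differs by the *Braf* allele, that of ABpI F/+ with ABpI F/F by the second floxed *Icmt* allele, and that of ABpI F/F with Ctrl by both. The comparisons share mice: both mutant groups are set against the same 6 Ctrl mice, so a Ctrl library that stands high, such as BG3, lowers both sets of fold changes together. Values of the comparisons are given side by side, and no similarity between them is read as a result. Fold changes are log2 throughout, with the standard error (SE) of the fit.

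In ABpI F/F, members of all 5 complexes fell and none rose in the main fit. Of the 88 members 61 fell, 60 of them among the 75 at 1 CPM or more, beside 7.36% of all genes (15.7% of those at 1 CPM or more). Of the 75 members, 72 had a negative log2 fold change. Their median was -0.81 (quartiles -0.94 and -0.67), beside -0.00 over all genes at that level. For 60 of the 75 members every ABpI F/F mouse lay below every Ctrl mouse. That count is given without its share over all genes and is not read as a result. At the stricter rule, an adjusted p under 0.01 and a change of at least 2-fold, 13 fell (2.38% of all genes). In the main fit by edgeR no member rose at either rule (9.7% and 4.55% of all genes), with 1 higher at an unadjusted p under 0.05. At the adjusted p under 0.05, 1 rose by DESeq2, with the filterByExpr filter or with the quasi-likelihood of edgeR 4, 2 rose without BG3 and malpa387, and 3 with the trend with transcript length removed. By complex, 28 of 39 fell in I, 3 of 4 in II, 5 of 9 in III, 10 of 18 in IV and 15 of 18 in V.

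The number of members past the test rested on 1 mouse to a large degree. Without BG38, 28 members fell in ABpI F/F and 3 of them at the stricter rule, with a median of -0.64, beside 4.64% of all genes that fell. The stricter count was 6 without BG3, 7 without malpa387, 8 without BG90 and 31 without BG183, and 1 member rose without BG3. Without BG3, malpa387 and BG38 together, 22 fell (beside 6.03% of all genes), 1 at the stricter rule, and the median was -0.40. With all mice and the length trend removed the median was -0.59. With the strain label as a covariate, BG3 is the only Ctrl mouse that the mutants are set against, and 57 fell at the stricter rule with a median of -1.30.

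In ABpI F/+ fewer members passed the test, and those that did were mostly lower. Of the 88 members 21 fell (20 of the 75 at 1 CPM or more), beside 12.7% of all genes and 23.3% of those at 1 CPM or more. At 1 CPM or more the count that fell is close to the share of all genes. Neither it nor the counts by complex in this group are read as a result about the members. Only *Cox7a2l* and *Atp5mc2* rose, beside 12.7% of all genes and 24.1% of those at 1 CPM or more. The median of the 75 members was -0.28 (quartiles -0.49 and -0.11), beside 0.02 over all genes, and 64 of 75 had a negative value. At the stricter rule *Sdha* and *Atp5me* fell (5.35% of all genes) and *Cox7a2l* rose (4.69%). Every ABpI F/+ mouse was below every Ctrl mouse for 10 members and above for 1, and 35 were lower and 5 higher at an unadjusted p under 0.05. These counts too are given without their shares over all genes and are not read as results. By complex, 11 of 39 fell in I, 1 of 4 in II, 2 of 9 in III, 3 of 18 in IV and 4 of 18 in V.

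Here the scaling and the high Ctrl mice changed the counts. Scaling by total counts alone moved the median of all genes to -0.16 and gave 52 lower members and 1 higher (beside 16.7% and 8.38% of all genes), while the members' median minus that of all genes stayed at -0.30. Without BG3 and malpa387, 10 members fell and 8 rose, beside 12.7% and 13.5% of all genes, and the median was -0.09. The strain label as a covariate, which sets the 6 mutant mice against BG3 alone, gave 38 lower members (beside 6.38% of all genes) and a median of -0.78, and removing the trend with transcript length gave 51 (beside 14.0%) and a median of -0.40. The 2 members that rose became 5 without BG3, and 1 without malpa454, malpa458, malpa459, malpa462 or BG88. At the stricter rule the 2 that fell became 1 without BG3, malpa387, BG30 or BG40, and 3 without BG31.

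Between the mutant groups, members were higher in ABpI F/+ than in ABpI F/F. Of the 88 members 29 were higher (7.46% of all genes, 15.8% of those at 1 CPM or more), and *Ndufa4l2* alone was lower (10.7% of all genes). The median of the 75 members was 0.50 (quartiles 0.36 and 0.62), beside 0.04 over all genes, and 73 of 75 were above 0. Every ABpI F/+ mouse was above every ABpI F/F mouse for 29 members, again a count without its share over all genes and not read as a result. At the stricter rule *Cox7a2l* and *Uqcr10* were higher (1.76% of all genes), and in the main fit by edgeR none was lower (5.49%), while 1 was lower with total counts or with the length trend removed. At an unadjusted p under 0.05, 2 were lower, and by DESeq2 1 was lower at the adjusted p under 0.05. Without BG38 the count of 29 was 5 (beside 4.76% of all genes), without BG90 11, without BG88 15 and without BG55 18, and the count of 1 was 0 without BG175 or BG183. The stricter count of 2 was 1 without BG55, BG88, BG38 or BG90, and 4 without BG183. Total counts moved the median of all genes to -0.15 and the members' median minus it from 0.46 to 0.49, and gave 12 higher members (beside 3.94% of all genes). With the clock score as a covariate 13 members and 2.74% of all genes were higher, while the members' median went to 0.81. With the length trend removed there were 11 higher members (beside 7.37% of all genes), and the members' median went to 0.21. Without BG3 and malpa387 there were 47 (beside 9.40%).

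**Figure D3:**
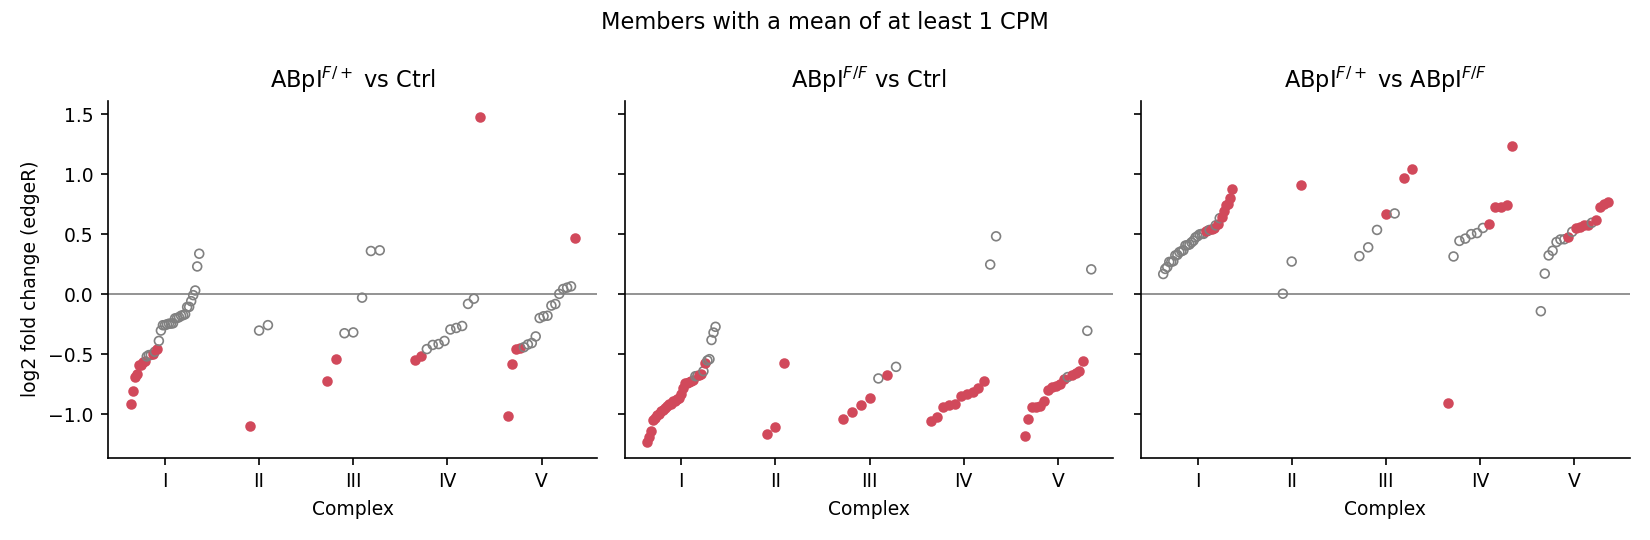
Log2 fold change of each of the 75 members at 1 CPM or more, by complex, for the 3 comparisons; filled points have an adjusted p under 0.05. Of the 75 points 72 lie below 0 for ABpI F/F against Ctrl, and 73 lie above 0 between the mutants.

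The 3 comparisons sort the 88 members into 8 patterns. The comparisons share mice, a missing call is not an absence of change, and the shares of all genes with these patterns are not given. The counts are a description of the members and are not read as results. A group of 22 fell in ABpI F/F and not in ABpI F/+, and was higher in ABpI F/+ than in ABpI F/F, among them *Sdhb*, *Uqcr10*, *Cox5a*, *Atp5f1b* and *Ndufv1*. Another 18 fell in ABpI F/F alone with no call between the mutants, among them *Atp5mc3* and *Cox7b*, and 18 fell in both mutant groups with no call between them, among them *Sdha*, *Ndufs1*, *Uqcrc1* and *Atp5f1a*. *Atp5pb*, *Ndufb6* and *Ndufb9* fell in both and lay lowest in ABpI F/F. *Cox7a2l* and *Atp5mc2* rose in ABpI F/+ and were higher there than in ABpI F/F, and *Ndufa2*, *Uqcrh* and, in the other direction, *Ndufa4l2* differed between the mutants alone. A further 22 were called in no comparison. *Atp5pb*, *Ndufb6*, *Ndufa2*, *Ndufs8*, *Uqcrc2*, *Ndufa6*, *Ndufa8*, *Ndufv3* and *Atp5if1* are named here or below after their values were seen.

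Complex II, succinate dehydrogenase, ties the TCA cycle to the chain through its flavoprotein *Sdha*, its iron-sulfur protein *Sdhb* and the membrane anchors *Sdhc* and *Sdhd*. *Sdha* (Entrez 66945, chr13:74322255-74350240) fell in both mutant groups. In Ctrl, *Sdha* ran from 514 to 616 CPM (median 556), and in ABpI F/+ from 225 to 281 CPM (median 274). *Sdha* stood at 321, 268 and 194 CPM in BG183, BG90 and BG38. All 9 mutant mice were below all 6 Ctrl mice, and the 2 mutant groups overlapped. The log2 fold change of *Sdha* was -1.10 (SE 0.13, adjusted p = 6.9e-07) in ABpI F/+ and -1.11 (SE 0.16, adjusted p = 3.5e-05) in ABpI F/F, and 0.00 between them. Both calls of *Sdha* held under each of the 27 alternatives.

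*Sdhb* (Entrez 67680, chr4:140961271-140979198) behaved otherwise. In Ctrl, *Sdhb* ran from 125 to 247 CPM (median 163), and in ABpI F/+ from 117 to 190.5 CPM (median 130.1). *Sdhb* stood at 109, 65.3 and 59.2 CPM in BG183, BG90 and BG38. Only ABpI F/F lay below Ctrl, and ABpI F/+ overlapped with Ctrl. *Sdhb* fell in ABpI F/F, -1.16 (SE 0.23, adjusted p = 9.6e-04), while the value in ABpI F/+ was -0.26 (adjusted p = 0.37), and the difference between the mutants was 0.91 (SE 0.23, adjusted p = 0.0072). That difference was no longer called without BG38 (0.74, adjusted p = 0.069), without BG90 (0.79, adjusted p = 0.053) or with the clock score as a covariate. Its value lay between 0.66 and 1.23 over all 27 alternatives. *Sdhc* fell in ABpI F/F (-0.57) and had -0.30 in ABpI F/+. *Sdhd* had 28 counts over all mice, too few to compare.

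Complex I takes electrons from NADH through 7 nuclear core subunits, with accessory subunits around them. The median of the core subunits was -0.89 in ABpI F/F, and *Ndufs1* and *Ndufs8* fell in ABpI F/+. Of the 28 accessory subunits 20 fell in ABpI F/F (median -0.79) and 8 in ABpI F/+ (median -0.25). *Ndufs1* (Entrez 227197, chr1:63143592-63176822), which holds iron-sulfur clusters of the electron path, stood out in both groups. In Ctrl, *Ndufs1* ran from 98.2 to 124 CPM (median 115), and in ABpI F/+ from 55.5 to 64.0 CPM (median 60.8). *Ndufs1* stood at 63.0, 47.0 and 44.0 CPM in BG183, BG90 and BG38. No mutant mouse reached the lowest Ctrl mouse. Its log2 fold change was -0.92 (SE 0.11, adjusted p = 6.8e-07) in ABpI F/+ and -1.14 (SE 0.14, adjusted p = 2.6e-06) in ABpI F/F, called under all 27 alternatives, and 0.23 (adjusted p = 0.29) between the mutants.

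*Ndufv1* (Entrez 17995, chr19:4007499-4012755) is the subunit that binds NADH. *Ndufv1* ran from 116 to 202 CPM (median 143) in Ctrl, from 107 to 154 CPM (median 124) in ABpI F/+, and was 104, 83.8 and 59.4 CPM in BG183, BG90 and BG38. For *Ndufv1* all ABpI F/F mice were below all other mice, while ABpI F/+ and Ctrl overlapped. *Ndufv1* fell in ABpI F/F, -0.89 (SE 0.19, adjusted p = 0.0018), and was higher in ABpI F/+ than in ABpI F/F, 0.64 (SE 0.19, adjusted p = 0.019), a call lost without BG38 (0.45, adjusted p = 0.16), without BG90 (0.66, adjusted p = 0.058) or with the clock score as a covariate. The difference between the mutants was 0.45 to 0.86 over all 27 alternatives.

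Among the accessory subunits, *Ndufa5* (Entrez 68202, chr6:24518662-24527690) had the lowest value in ABpI F/F of the 75 members at 1 CPM or more. In Ctrl, *Ndufa5* ran from 30.9 to 58.8 CPM (median 37.8), and in ABpI F/+ from 20.9 to 29.5 CPM (median 27.0). *Ndufa5* stood at 21.6, 17.7 and 14.4 CPM in BG183, BG90 and BG38. Every mutant mouse was below every Ctrl mouse for *Ndufa5*, and the mutant groups overlapped. Its log2 fold change was -1.23 (SE 0.20, adjusted p = 1.3e-04) in ABpI F/F and -0.69 (SE 0.16, adjusted p = 0.0017) in ABpI F/+. The difference between the mutants, 0.54 (adjusted p = 0.063), passed without BG3 (0.54, adjusted p = 0.031), malpa387 (0.54, 0.049), BG40 (0.59, 0.044) or BG183 (0.69, 0.037).

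*Ndufb9* (Entrez 66218, chr15:58933801-58939516) lay lowest in ABpI F/F. In Ctrl, *Ndufb9* ran from 122 to 227 CPM (median 131), and in ABpI F/+ from 85.2 to 139.8 CPM (median 99.4). *Ndufb9* stood at 84.2, 68.1 and 50.6 CPM in BG183, BG90 and BG38. The ABpI F/F mice were below all others, and ABpI F/+ overlapped with Ctrl. The log2 fold change of *Ndufb9* was -1.19 (SE 0.23, adjusted p = 6.1e-04) in ABpI F/F, -0.50 (SE 0.18, adjusted p = 0.039) in ABpI F/+ and 0.69 (SE 0.22, adjusted p = 0.032) between them. The call in ABpI F/+ was lost without BG3, malpa387, BG175, BG30, BG31 or BG40 (adjusted p = 0.071 to 0.12), and that between the mutants without BG55, BG88, BG38 or BG90 (adjusted p = 0.065 to 0.21).

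*Ndufs6b* (Entrez 623286, chr7:81161273-81161746) matches *Ndufs6* over 70.1% of its length and was under 1 CPM on average. *Ndufs6b* ran from 0.932 to 2.05 CPM (median 1.29) in Ctrl, from 0.544 to 1.09 CPM (median 0.617) in ABpI F/+, and was 0.718, 0.643 and 0.277 CPM in BG183, BG90 and BG38. *Ndufs6b* was lower in each ABpI F/F mouse than in any Ctrl mouse, and ABpI F/+ overlapped with both. *Ndufs6b* was called lower in both groups (-1.04 and -1.38, adjusted p = 0.018 and 0.022), but not without malpa454 (-0.91 and -1.25, adjusted p = 0.059 and 0.054) nor, in ABpI F/F, without BG38 (-1.05, adjusted p = 0.15). Complex I members called in no comparison included *Ndufa6*, *Ndufa8* and *Ndufv3*, with log2 fold changes in ABpI F/F of -0.32, -0.38 and -0.27.

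Complex III passes electrons from ubiquinol to cytochrome c. Of 9 members 5 fell in ABpI F/F and 2 in ABpI F/+, the 2 being the large matrix subunits *Uqcrc1* (Entrez 22273, chr9:108936648-108949641) and *Uqcrc2* (Entrez 67003, chr7:120635189-120659523). *Uqcrc1* ran from 207 to 303 CPM (median 231) in Ctrl, from 144 to 194 CPM (median 163) in ABpI F/+, and was 166, 121 and 101 CPM in BG183, BG90 and BG38. *Uqcrc2* ran from 199.995 to 242 CPM (median 227) in Ctrl, from 123 to 154 CPM (median 129.7) in ABpI F/+, and was 134, 103 and 89.3 CPM in BG183, BG90 and BG38. For both genes every mutant mouse was below every Ctrl mouse, and the mutant groups overlapped. Their log2 fold changes in ABpI F/+ were -0.54 (SE 0.14, adjusted p = 0.0045) and -0.72 (SE 0.12, adjusted p = 4.8e-05). In ABpI F/F they were -0.93 (SE 0.17, adjusted p = 4.8e-04) and -1.04 (SE 0.15, adjusted p = 2.4e-05), called like those in ABpI F/+ under all 27 alternatives. Between the mutants *Uqcrc1* had 0.39 and *Uqcrc2* 0.32, called only without BG183 (0.61, adjusted p = 0.021, and 0.50, adjusted p = 0.028).

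The Rieske iron-sulfur protein of complex III is encoded by *Uqcrfs1* (Entrez 66694, chr13:30540312-30545316). *Uqcrfs1* ran from 174 to 249 CPM (median 184) in Ctrl, from 144 to 183 CPM (median 150.5) in ABpI F/+, and was 127, 91.9 and 78.8 CPM in BG183, BG90 and BG38. For *Uqcrfs1* all ABpI F/F mice were below all other mice, while ABpI F/+ and Ctrl overlapped. *Uqcrfs1* fell in ABpI F/F, -0.98 (SE 0.17, adjusted p = 1.7e-04), with -0.32 in ABpI F/+ (adjusted p = 0.081). It was higher in ABpI F/+ than in ABpI F/F, 0.67 (SE 0.16, adjusted p = 0.0057), a call lost without BG38 (0.52, adjusted p = 0.057) and with the clock score as a covariate. That difference was 0.47 to 0.88 over all 27 alternatives.

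*Uqcr10* (Entrez 66152, chr11:4701968-4704344) and *Uqcrh* (Entrez 66576, chr4:116066965-116075070), small subunits near cytochrome c1, had fold changes above 0 in ABpI F/+, where neither was called, and below 0 in ABpI F/F. Set against BG3 alone, with the strain label as a covariate, they had -0.13 and -0.12 in ABpI F/+. In Ctrl, *Uqcr10* ran from 48.8 to 89.7 CPM (median 56.0), and in ABpI F/+ from 63.7 to 109 CPM (median 75.7). *Uqcr10* stood at 48.4, 41.3 and 30.0 CPM in BG183, BG90 and BG38. Every ABpI F/+ mouse was above every ABpI F/F mouse for *Uqcr10*, while Ctrl overlapped with ABpI F/+ alone. The difference between the mutants was 1.04 (SE 0.22, adjusted p = 0.002), called under all 27 alternatives, with 0.37 (SE 0.17, adjusted p = 0.14) in ABpI F/+ and -0.67 (SE 0.22, adjusted p = 0.035) in ABpI F/F against Ctrl. The call in ABpI F/F was lost without BG3, malpa387, BG38 or BG90 (adjusted p = 0.067 to 0.24), and with the fit on the groups compared only, and *Uqcr10* rose in ABpI F/+ without BG3 (0.49, adjusted p = 0.033).

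*Uqcrh* ran from 85.7 to 163 CPM (median 97.9) in Ctrl, from 121 to 203 CPM (median 139) in ABpI F/+, and was 87.1, 83.5 and 58.8 CPM in BG183, BG90 and BG38. Every ABpI F/+ mouse was above every ABpI F/F mouse for *Uqcrh*, and Ctrl overlapped with both. The difference of *Uqcrh* between the mutants was 0.96 (SE 0.22, adjusted p = 0.0032), called under all 27 alternatives. Against Ctrl it had 0.36 in ABpI F/+, called without BG3 (0.48, adjusted p = 0.035) or malpa387 (0.47, 0.048), and -0.60 in ABpI F/F, called without malpa462 (-0.68, 0.034), BG175 (-0.66, 0.048) or BG88 (-0.62, 0.046), and with total counts, DESeq2, filterByExpr, the strain label, the clock score or the length trend removed, 9 of the 27 alternatives in all. *Uqcr11* had 9 counts over all mice.

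Complex IV, cytochrome c oxidase, hands the electrons to oxygen. Of 18 members 10 fell in ABpI F/F and 3 in ABpI F/+, and the member that rose in ABpI F/+ was *Cox7a2l* (Entrez 20463, chr17:83501917-83514333), which helps to join complexes III and IV into supercomplexes. In Ctrl, *Cox7a2l* ran from 65.5 to 109.6 CPM (median 73.7), and in ABpI F/+ from 192 to 276 CPM (median 208). *Cox7a2l* stood at 82.8, 96.5 and 102 CPM in BG183, BG90 and BG38. Each ABpI F/+ mouse was above each Ctrl and each ABpI F/F mouse, and ABpI F/F overlapped with Ctrl. *Cox7a2l* rose in ABpI F/+, 1.48 (SE 0.13, adjusted p = 2.2e-08), and was higher there than in ABpI F/F, 1.23 (SE 0.17, adjusted p = 3.4e-05), under all 27 alternatives. Its value in ABpI F/F against Ctrl was 0.25 (adjusted p = 0.38). Another locus, *Gm6969*, matches 31.2% of its transcript.

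*Cox4i1* (Entrez 12857, chr8:120668225-120674209) and *Cox5a* (Entrez 12858, chr9:57517328-57532427) join the catalytic core early in its assembly. *Cox4i1* ran from 274 to 511 CPM (median 278) in Ctrl, from 277 to 422 CPM (median 315) in ABpI F/+, and was 238, 216 and 157 CPM in BG183, BG90 and BG38. For *Cox4i1* all ABpI F/F mice were below all other mice, while ABpI F/+ and Ctrl overlapped. *Cox4i1* fell in ABpI F/F, -0.78 (SE 0.23, adjusted p = 0.019), a call lost without BG38 (-0.63, adjusted p = 0.15) or BG90 (-0.83, adjusted p = 0.05), and without BG3 and malpa387 together. *Cox4i1* had -0.04 in ABpI F/+ against Ctrl, and between the mutants 0.75 (SE 0.23, adjusted p = 0.025), lost without BG55, BG88, BG38 or BG90 (adjusted p = 0.051 to 0.16). *Cox5a* ran from 102 to 153 CPM (median 107) in Ctrl, from 78.0 to 128 CPM (median 85.8) in ABpI F/+, and was 71.2, 58.1 and 44.5 CPM in BG183, BG90 and BG38. For *Cox5a* all ABpI F/F mice were below all other mice, while ABpI F/+ and Ctrl overlapped. *Cox5a* fell in ABpI F/F, -1.02 (SE 0.19, adjusted p = 4.8e-04), under all 27 alternatives, and was higher in ABpI F/+ than in ABpI F/F, 0.73 (SE 0.19, adjusted p = 0.0084), a call lost without BG38 (0.57, adjusted p = 0.081), with the clock score as a covariate or with the length trend removed. The difference between the mutants was 0.32 to 0.94 over these alternatives.

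Several subunits of complex IV come as pairs of isoforms, and for most pairs the form known from liver made up nearly all counts. *Cox6a1* had 254 ± 78.7 CPM in Ctrl (SD, n = 6), 174 ± 29.8 in ABpI F/+ (n = 6) and 122 ± 33.8 in ABpI F/F (n = 3), and *Cox6b1* had 136 ± 45.9 CPM in Ctrl (SD, n = 6), 94.8 ± 14.4 in ABpI F/+ (n = 6) and 76.3 ± 16.8 in ABpI F/F (n = 3). Their partners in heart, muscle and testis, *Cox6a2* and *Cox6b2*, had 15 and 143 counts over all mice, and *Cox4i2* and *Cox8b* had 30 and 9. No read was assigned to *Cox7b2* or *Cox8c*. *Cox6a1* fell in ABpI F/F, -1.06 (SE 0.23, adjusted p = 0.0021), and so did *Cox6b1*, -0.83 (SE 0.22, adjusted p = 0.011), the latter not without BG38 (-0.68, adjusted p = 0.1). In ABpI F/+ they had -0.55 (SE 0.18, adjusted p = 0.027) and -0.52 (SE 0.18, adjusted p = 0.034), calls lost without BG3, malpa387, BG175, BG30, BG31 or BG40 for both and without BG55 for *Cox6b1* (adjusted p = 0.051 to 0.1). *Cox8a* and *Cox7b* fell in ABpI F/F (-0.81 and -0.72), not without BG38 (-0.67, adjusted p = 0.15, and -0.52, adjusted p = 0.14), nor, for *Cox8a*, without BG90 (-0.81, adjusted p = 0.07). *Cox8a* was higher in ABpI F/+ than in ABpI F/F, 0.73 (SE 0.24, adjusted p = 0.035), a call lost without BG55, BG88, BG38 or BG90 (adjusted p = 0.068 to 0.2). *Cox7a2*, the form of COX7A known from liver, was an exception with 54 counts over all mice, and how reads were assigned to it, to *Sdhd* and to *Uqcr11* was not tested. *Cox7a1*, the muscle form, had 401 counts over all mice and was called in no comparison (-0.30, -0.92 and 0.62).

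*Ndufa4* and its hypoxia-inducible relative *Ndufa4l2* (Entrez 407790, chr10:127509274-127517154) had differences of opposite sign between the mutants. *Ndufa4* had 185 ± 50.2 CPM in Ctrl (SD, n = 6), 154 ± 26.0 in ABpI F/+ (n = 6) and 103 ± 21.2 in ABpI F/F (n = 3). It fell in ABpI F/F, -0.85 (SE 0.21, adjusted p = 0.0048), a call lost without BG38 (-0.71, adjusted p = 0.051). Between the mutants *Ndufa4* had 0.58 (SE 0.20, adjusted p = 0.048), a call lost without any 1 of malpa454, malpa458, malpa459, malpa462, BG175, BG30, BG31, BG55, BG88, BG38 and BG90 (adjusted p = 0.051 to 0.25). *Ndufa4l2* ran from 1.12 to 2.05 CPM (median 1.66) in Ctrl, from 1.02 to 1.501 CPM (median 1.13) in ABpI F/+, and was 2.71, 1.96 and 2.10 CPM in BG183, BG90 and BG38. Every ABpI F/+ mouse was below every ABpI F/F mouse for *Ndufa4l2*, and Ctrl overlapped with both. *Ndufa4l2* was lower in ABpI F/+ than in ABpI F/F, -0.90 (SE 0.27, adjusted p = 0.022), a call lost without BG175 (-0.83, adjusted p = 0.054), without BG183 (-0.75, adjusted p = 0.11) or with the clock score as a covariate. That difference was -1.21 to -0.75 over all 27 alternatives. Against Ctrl *Ndufa4l2* had -0.42 (ABpI F/+) and 0.48 (ABpI F/F), neither called.

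Complex V, ATP synthase, joins a catalytic F1 head to a membrane part that holds the ring of c subunits. All 18 members were at 1 CPM or more, and 15 fell in ABpI F/F and 4 in ABpI F/+. The catalytic head subunits *Atp5f1a* (Entrez 11946, chr18:77773768-77782869) and *Atp5f1b* (Entrez 11947, chr10:128083307-128090388) are the most counted members. *Atp5f1b* ran from 1115 to 1329.5 CPM (median 1183) in Ctrl, from 807 to 1099 CPM (median 895) in ABpI F/+, and was 776, 595 and 500.1 CPM in BG183, BG90 and BG38. For *Atp5f1b* no 2 groups overlapped. *Atp5f1a* ran from 902 to 1102 CPM (median 966) in Ctrl, from 591 to 834 CPM (median 715) in ABpI F/+, and was 650.1, 531 and 411 CPM in BG183, BG90 and BG38. Every mutant mouse was below every Ctrl mouse for *Atp5f1a*, and the mutant groups overlapped. Both fell in ABpI F/F under all 27 alternatives, -0.93 (SE 0.17, adjusted p = 4.1e-04) and -0.89 (SE 0.17, adjusted p = 6.0e-04). *Atp5f1a* also fell in ABpI F/+, -0.45 (SE 0.13, adjusted p = 0.014), a call lost against BG3 alone (strain label as a covariate), and had 0.43 between the mutants, called without BG183 (0.61, adjusted p = 0.023). *Atp5f1b* had -0.35 (SE 0.13, adjusted p = 0.061) in ABpI F/+, called without BG55 (-0.40, adjusted p = 0.042), BG183 (-0.35, 0.04) or BG38 (-0.35, 0.035). *Atp5f1b* was higher in ABpI F/+ than in ABpI F/F, 0.58 (SE 0.17, adjusted p = 0.018), a call lost without BG38 (0.44, adjusted p = 0.12), without BG90 (0.55, adjusted p = 0.076), with total counts or with the clock score as a covariate. That difference was 0.41 to 0.77 over all 27 alternatives.

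The c subunit is encoded by 3 genes for 1 mature protein, *Atp5mc1*, *Atp5mc2* and *Atp5mc3*, and these differed. *Atp5mc1* had 138 ± 30.4 CPM in Ctrl (SD, n = 6), 92.2 ± 17.6 in ABpI F/+ (n = 6) and 67.3 ± 20.2 in ABpI F/F (n = 3), and *Atp5mc3* had 304 ± 82.8 CPM in Ctrl (SD, n = 6), 227 ± 34.2 in ABpI F/+ (n = 6) and 159 ± 45.6 in ABpI F/F (n = 3). *Atp5mc1* fell in ABpI F/+, -0.58 (SE 0.16, adjusted p = 0.01), and for ABpI F/F, -1.04 (SE 0.21, adjusted p = 0.0011), and *Atp5mc3* fell in ABpI F/F, -0.94 (SE 0.22, adjusted p = 0.0033). The call of *Atp5mc1* in ABpI F/+ was lost without BG3 and malpa387 together and with the length trend removed. *Atp5mc3* had -0.42 in ABpI F/+ and 0.52 between the mutants, the latter called without BG183 (0.75, adjusted p = 0.032).

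*Atp5mc2* (Entrez 67942, chr15:102662868-102671047) was the exception among the c subunit genes. In Ctrl, *Atp5mc2* ran from 65.3 to 117 CPM (median 72.7), and in ABpI F/+ from 89.0 to 146 CPM (median 108). *Atp5mc2* stood at 70.9, 65.8 and 65.3 CPM in BG183, BG90 and BG38. The ABpI F/+ mice overlapped with Ctrl and lay above ABpI F/F. *Atp5mc2* rose in ABpI F/+, 0.47 (SE 0.15, adjusted p = 0.021), a call lost without malpa454, malpa458, malpa459, malpa462, BG55 or BG88 (adjusted p = 0.052 to 0.067), with total counts (0.29, adjusted p = 0.15) or with the length trend removed (0.21, 0.052), and at -0.03 against BG3 alone (strain label as a covariate). It was higher in ABpI F/+ than in ABpI F/F, 0.77 (SE 0.19, adjusted p = 0.005), a call lost with the length trend removed (0.25, adjusted p = 0.093), and had -0.30 in ABpI F/F against Ctrl. The pseudogenes *Gm10175* and *Gm10231* match its whole transcript.

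*Atp5me* (Entrez 11958, chr5:108433246-108434399), a small subunit of the membrane part, was low in both mutant groups. In Ctrl, *Atp5me* ran from 22.3 to 55.9 CPM (median 27.3), and in ABpI F/+ from 11.2 to 20.7 CPM (median 16.0). *Atp5me* stood at 17.7, 16.4 and 9.94 CPM in BG183, BG90 and BG38. Every mutant mouse was below every Ctrl mouse for *Atp5me*, and the mutant groups overlapped. *Atp5me* fell in ABpI F/+, -1.01 (SE 0.23, adjusted p = 0.0033), and for ABpI F/F, -1.18 (SE 0.30, adjusted p = 0.0097), the latter not without BG38 (-0.96, adjusted p = 0.077). *Atp5if1*, which encodes the inhibitor of the synthase's reverse reaction, was called in no comparison, with 0.07 in ABpI F/+, and 0.21 with both *Icmt* alleles floxed. *Atp5if1* was 1 of 3 members of the 75 above 0 in ABpI F/F, with *Cox7a2l* and *Ndufa4l2*.

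**Figure D4:**
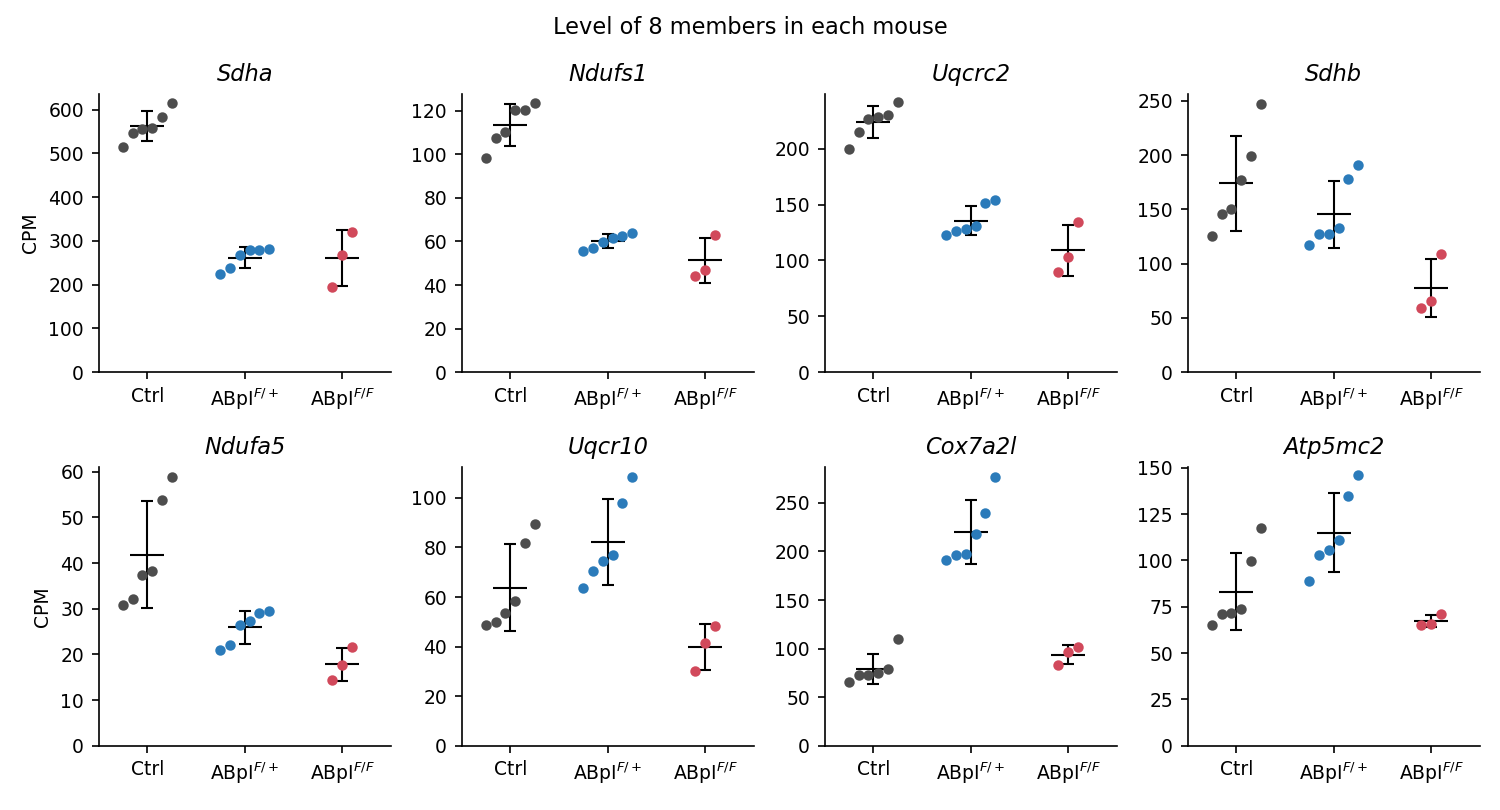
CPM of *Sdha*, *Ndufs1*, *Uqcrc2*, *Sdhb*, *Ndufa5*, *Uqcr10*, *Cox7a2l* and *Atp5mc2* in each of 15 mice, by group. *Sdha* lies at 514 to 616 CPM in Ctrl and 225 to 281 in ABpI F/+, and *Cox7a2l* at 65.5 to 109.6 and 192 to 276.

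Levels of different genes can be set side by side only per length of transcript. In CPM per kilobase of transcript, the Ctrl means were highest for *Atp5f1b* (621), *Cox4i1* (471), *Cox6a1* (445), *Atp5mc3* (426) and *Atp5f1a* (396), and lowest of the 75 for *Ndufa4l2* (1.73). *Sdha* and *Sdhb*, which pair within complex II, had 194 and 152 CPM per kilobase in Ctrl, 90.3 and 127 in ABpI F/+, and 90.1 and 68.0 in ABpI F/F. *Cox7a2l* had 73.4, 204 and 87.1 CPM per kilobase in the same order of groups. Near-identical copies elsewhere in the genome were found for 16 of the members, and reads of those members may be shared with the copies.

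The partners of the chain are given by counts and medians, to be read beside 0.02, -0.00 and 0.04 for all genes at 1 CPM or more in ABpI F/+, in ABpI F/F and between the mutants. Of those genes 23.3% fell and 24.1% rose in ABpI F/+, 15.7% fell and 16.1% rose in ABpI F/F, and 15.8% were higher and 16.6% lower in ABpI F/+ than in ABpI F/F. A range in brackets after a count of a list is the count with 1 mouse left out at a time, given where it moved. The assembly factor lists of complexes II, III and V and the 2 sides of the clock score carry no ranges. Without BG38 the count that fell in ABpI F/F was the lowest of its range in every list given with ranges, and so was the count higher in ABpI F/+ than in ABpI F/F, except for the TCA cycle list (6). Of the electron carriers and entry enzymes, 11 of 20 fell (11 to 12) and 1 rose in ABpI F/+ (median -0.52), 12 fell (10 to 13) and 0 rose in ABpI F/F (median -0.71), and 4 (1 to 5) were higher and 0 (0 to 2) lower in ABpI F/+ than in ABpI F/F (median 0.29). *Etfdh* (Entrez 66841), which feeds electrons from fatty acid oxidation to ubiquinone, had 234 ± 25.4 CPM in Ctrl (SD, n = 6), 72.9 ± 9.50 in ABpI F/+ (n = 6) and 98.6 ± 24.4 in ABpI F/F (n = 3). *Etfdh* fell in ABpI F/+, -1.69 (SE 0.13, adjusted p = 2.2e-09), and for ABpI F/F, -1.25 (SE 0.17, adjusted p = 1.0e-05). Cytochrome c, *Cycs* (Entrez 13063), fell in both, -0.61 and -1.21 (adjusted p = 0.0029 and 7.9e-05). *Cyc1* (Entrez 66445), its partner in complex III, fell in ABpI F/F, -1.12 (SE 0.19, adjusted p = 1.5e-04), and had -0.39 in ABpI F/+ (adjusted p = 0.056), called without BG55 (-0.44, 0.039), BG88 (-0.45, 0.04), BG183 (-0.39, 0.038) or BG38 (-0.39, 0.031). Of the genes of pyruvate dehydrogenase and the TCA cycle, 10 of 18 fell (9 to 13) and 0 rose in ABpI F/+ (median -0.40), 17 fell (16 to 18) and 0 rose in ABpI F/F (median -0.93), and 8 (5 to 12) were higher and 0 lower in ABpI F/+ than in ABpI F/F (median 0.35). Citrate synthase, *Cs* (Entrez 12974), had -0.98 (SE 0.10, adjusted p = 1.9e-07) in ABpI F/+ and -0.97 (SE 0.13, adjusted p = 1.4e-05) in ABpI F/F. *Idh3a* (Entrez 67834) had -0.05 in ABpI F/+ (not called), -1.30 (SE 0.17, adjusted p = 6.0e-06) in ABpI F/F and 1.25 (SE 0.17, adjusted p = 1.9e-05) between the mutants.

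Subunits encoded in mitochondrial DNA were counted as well. For these subunits, 4 of 13 fell (3 to 5) and 1 rose (0 to 1) in ABpI F/+ (median -0.54), 6 fell (5 to 7) and 0 rose in ABpI F/F (median -0.93), and 3 (1 to 6) were higher and 0 lower in ABpI F/+ than in ABpI F/F (median 0.57). *CYTB* (Entrez 17711), of complex III, had 8511 ± 549.7 CPM in Ctrl (SD, n = 6), 6006 ± 1151 in ABpI F/+ (n = 6) and 4145 ± 628 in ABpI F/F (n = 3). *CYTB* fell in ABpI F/+, -0.50 (SE 0.15, adjusted p = 0.018), a call lost without BG175 (-0.46, adjusted p = 0.051), and for ABpI F/F, -1.04 (SE 0.20, adjusted p = 5.7e-04). *ND2* (Entrez 17717), of complex I, fell in ABpI F/+, -0.65 (SE 0.16, adjusted p = 0.0028), and for ABpI F/F, -0.91 (SE 0.20, adjusted p = 0.002). *ATP6* (Entrez 17705), of complex V, and *COX2* (Entrez 17709), of complex IV, fell in ABpI F/F, -2.11 and -1.37 (adjusted p = 0.0042 and 0.0041). *ATP6* fell in ABpI F/+ too, -1.06 (SE 0.33, adjusted p = 0.031), a call lost without malpa387, malpa454 or BG30 (adjusted p = 0.055 to 0.07), where *COX2* had -0.59 (adjusted p = 0.085), called without BG3 (-0.70, 0.032) or malpa458 (-0.72, 0.014). Of the mitochondrial ribosome genes, which make these subunits, 13 of 78 fell (10 to 15) and 5 rose (4 to 11) in ABpI F/+ (median -0.07), 33 fell (12 to 39) and 0 rose in ABpI F/F (median -0.48), and 20 (8 to 28) were higher and 0 lower in ABpI F/+ than in ABpI F/F (median 0.34). *Mrpl15* (Entrez 27395) had the lowest values of that list in both, -0.84 and -1.01 (adjusted p = 3.9e-05 and 1.5e-04).

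Assembly factors build the complexes without staying in them. Of those for complex I, 5 of 15 fell (4 to 7) and 1 rose (0 to 1) in ABpI F/+ (median -0.35), 10 fell (7 to 11) and 0 rose in ABpI F/F (median -0.68), and 3 (2 to 4) were higher and 1 (1 to 2) lower in ABpI F/+ than in ABpI F/F (median 0.29). *Ndufaf1* (Entrez 69702) and *Acad9* (Entrez 229211), which work in 1 assembly complex, fell in ABpI F/+, -1.26 (SE 0.11, adjusted p = 1.6e-08) and -1.23 (SE 0.11, adjusted p = 1.0e-08), and for ABpI F/F, -0.96 and -0.71 (adjusted p = 3.4e-05 and 4.1e-04). *Ndufaf4* (Entrez 68493) had 31.4 ± 6.42 CPM in Ctrl (SD, n = 6), 41.1 ± 7.24 in ABpI F/+ (n = 6) and 11.6 ± 1.19 in ABpI F/F (n = 3). For *Ndufaf4* the log2 fold change was 0.39 (SE 0.14, adjusted p = 0.048) in ABpI F/+, a call lost without malpa387, malpa458, malpa462, BG175, BG31, BG55, BG88 or BG90 (adjusted p = 0.056 to 0.12), -1.43 (SE 0.19, adjusted p = 8.7e-06) in ABpI F/F and 1.82 (SE 0.19, adjusted p = 1.7e-06) between the mutants. Of those for complex IV, 8 of 21 fell (5 to 9) and 3 rose (2 to 4) in ABpI F/+ (median -0.29), 10 fell (3 to 12) and 0 rose in ABpI F/F (median -0.48), and 6 (2 to 6) were higher and 0 lower in ABpI F/+ than in ABpI F/F (median 0.26). *Taco1* (Entrez 70207), a translational activator of a catalytic subunit, fell in ABpI F/+, -1.04 (SE 0.16, adjusted p = 2.3e-05), and for ABpI F/F, -0.90 (SE 0.20, adjusted p = 0.0023), while *Cox20* (Entrez 66359) rose in ABpI F/+, 0.67 (SE 0.12, adjusted p = 1.4e-04), and had 0.14 in ABpI F/F. For complexes II, III and V, with lists of 4, 6 and 3, the medians were -0.04, -0.34 and -0.56 in ABpI F/+ and -0.36, -0.59 and -0.48 in ABpI F/F. In ABpI F/+ 0, 2 and 2 of these fell and 1, 0 and 0 rose, and for ABpI F/F 1, 3 and 2 fell and by edgeR none rose. Without BG38 the counts that fell in ABpI F/F were 0, 1 and 1.

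Transcription factors and coactivators known to drive respiratory chain genes had calls in both directions in ABpI F/+. Among regulators of mitochondrial biogenesis, 3 of 20 fell (2 to 5) and 3 rose (3 to 4) in ABpI F/+ (median 0.00), 7 fell (5 to 8) and 0 rose in ABpI F/F (median -0.31), and 6 (5 to 8) were higher and 1 (0 to 1) lower in ABpI F/+ than in ABpI F/F (median 0.36). *Ppargc1a* (Entrez 19017), the coactivator, had 13.3 ± 3.41 CPM in Ctrl (SD, n = 6), 35.9 ± 10.9 in ABpI F/+ (n = 6) and 14.0 ± 2.16 in ABpI F/F (n = 3). It rose in ABpI F/+, 1.43 (SE 0.19, adjusted p = 1.2e-05), with 0.08 in ABpI F/F (adjusted p = 1) and 1.36 (SE 0.25, adjusted p = 6.7e-04) between the mutants. Its partner *Esrra* (Entrez 26379) rose in ABpI F/+, 0.84 (SE 0.15, adjusted p = 1.1e-04), and had -0.52 in ABpI F/F (adjusted p = 0.054), called without malpa387 (-0.60, 0.017), BG175 (-0.57, 0.045), BG30 (-0.52, 0.046), BG55 (-0.52, 0.037) or BG183 (-0.74, 0.012). *Esrrg* (Entrez 26381) fell in ABpI F/+, -2.04 (SE 0.31, adjusted p = 2.8e-05), and for ABpI F/F, -2.41 (SE 0.42, adjusted p = 2.3e-04). *Nrf1* (Entrez 18181) rose in ABpI F/+, 0.48 (SE 0.14, adjusted p = 0.013), and had 0.24 in ABpI F/F. *Gabpa* (Entrez 14390) had -0.26 in ABpI F/+, called without BG3 (-0.31, adjusted p = 0.021) or malpa387 (-0.30, 0.047), and -0.39 (SE 0.13, adjusted p = 0.042) in ABpI F/F, lost without malpa454, malpa458, malpa459, malpa462, BG30, BG88, BG38 or BG90 (adjusted p = 0.05 to 0.21). *Tfam* (Entrez 21780), which binds mitochondrial DNA, was called in neither, with -0.23 and -0.31.

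Of the genes for membranes, import and cristae, 5 of 22 fell and 4 rose (3 to 7) in ABpI F/+ (median -0.02), 13 fell (8 to 15) and 1 rose in ABpI F/F (median -0.53), and 15 (6 to 15) were higher and 0 lower in ABpI F/+ than in ABpI F/F (median 0.53). *Slc25a4* (Entrez 11739), an ADP/ATP carrier, had 5.83 ± 1.03 CPM in Ctrl (SD, n = 6), 29.3 ± 10.3 in ABpI F/+ (n = 6) and 15.9 ± 5.61 in ABpI F/F (n = 3). *Slc25a4* rose in both groups, 2.33 (SE 0.24, adjusted p = 1.1e-06) and 1.45 (SE 0.27, adjusted p = 0.001). *Tomm20* (Entrez 67952), an import receptor, rose in ABpI F/+, 0.88 (SE 0.10, adjusted p = 7.9e-07), and had 0.04 in ABpI F/F, while the chaperonin *Hspd1* (Entrez 15510) fell in both, -0.80 and -1.20 (adjusted p = 1.1e-05 and 3.6e-06). *Ucp2* (Entrez 22228), the 1 uncoupling protein of 3 at 1 CPM or more, fell in ABpI F/+, -1.59 (SE 0.16, adjusted p = 1.5e-07), was lower there than in ABpI F/F, -1.13 (SE 0.19, adjusted p = 2.2e-04), and had -0.46 in ABpI F/F against Ctrl, called without BG38 (-0.74, adjusted p = 0.021). Of the genes that hypoxia induces, 3 of 9 fell (2 to 3) and 2 rose in ABpI F/+ (median -0.26), 6 fell (5 to 6) and 0 rose (0 to 1) in ABpI F/F (median -0.84), and 4 (4 to 5) were higher and 0 lower in ABpI F/+ than in ABpI F/F (median 0.60). *Bnip3* (Entrez 12176) rose in ABpI F/+, 1.52 (SE 0.14, adjusted p = 2.5e-08), and fell in ABpI F/F, -0.75 (SE 0.17, adjusted p = 0.0033), and *Pdk1* (Entrez 228026) fell in ABpI F/F, -1.76 (SE 0.20, adjusted p = 1.3e-06). *Pdk1*, which holds back pyruvate dehydrogenase, had -0.37 in ABpI F/+, called without BG40 (-0.43, adjusted p = 0.044) or BG55 (-0.45, 0.038).

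Of the 4 genes on the first side of the clock score, *Cry1* rose and *Clock* fell in ABpI F/+, *Npas2* rose in ABpI F/F, and *Cry1* was higher and the other 3 lower in ABpI F/+ than in ABpI F/F. The call of *Clock* in ABpI F/+ was lost without malpa387 (-0.28, adjusted p = 0.1) or BG88 (-0.43, 0.065), without malpa387 *Clock* and *Bmal1* rose in ABpI F/F (0.66 and 4.34) and *Bmal1* in ABpI F/+ (1.32), and between the mutants *Cry1* was not called without BG183 or BG38, nor *Bmal1* without BG175, BG31, BG40, BG55, BG183, BG38 or BG90 (adjusted p = 0.054 to 0.093). *Cry1*, whose product is a repressor, was placed on that side beforehand. Of the 9 genes on the other side 1 rose in ABpI F/+, 7 fell in ABpI F/F, and 7 were higher and 1 lower in ABpI F/+ than in ABpI F/F. In ABpI F/F the call of *Per2* was lost without malpa454, malpa458, malpa459, malpa462, BG183, BG38 or BG90 (adjusted p = 0.061 to 0.13). That of *Per3* was lost without BG38 or BG90 (0.071 and 0.06), and that of *Per1* without BG183 (0.058). Between the mutants *Per2* was not called without BG38 or BG90 (0.053 and 0.052). The medians of the 2 sides in ABpI F/F were 1.60 and -1.93.

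Promoters were read from the RefSeq table of 250 bases before to 50 after each start, on GRCm38.p6, which held 74 promoters for 69 of the members among 32851 in all. The letters CGCATGCG, a motif of NRF1, were found on either strand in 9 of the 74 (12.2%, 95% Wilson interval 6.53% to 21.5%), against 1.87% of all promoters. CCGGAAG, a motif of the ETS family that includes GABPA, was in 17 (23.0%, 14.9% to 33.8%), against 8.86%. TCAAGGTCA, a motif of the ERR receptors, was in 2 (2.70%, 0.744% to 9.33%), against 0.423%, and GGGCGG, a motif of the SP1 family, was in 29 (39.2%, 28.9% to 50.6%), against 35.7%. Both the NRF1 and the ETS letters were in 5 promoters, and 32 held none of the 4 motifs. A match is a description of letters, and the intervals cover counting error only.

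The 250 bases before the start are shown for *Sdha* and *Sdhb*, whose products form 1 enzyme while *Sdha* alone fell in ABpI F/+, and for *Uqcr10* and *Cox7a2l*, whose group means were highest in ABpI F/+. Capitals mark GGGCGG on either strand, printed as CCGCCC where it lies on the other strand, and no letters of the other 3 motifs were found in these 250 bases, while the 50 bases after the start, not printed, hold the ETS letters for *Sdhb*. The *Sdha* window (chr13:74350241-74350490, minus strand) and the *Uqcr10* window (chr11:4704345-4704594, minus strand) hold none, the *Sdhb* window (chr4:140961021-140961270, plus strand) holds 3 and the *Cox7a2l* window (chr17:83514334-83514583, minus strand) holds 1.
Sdha: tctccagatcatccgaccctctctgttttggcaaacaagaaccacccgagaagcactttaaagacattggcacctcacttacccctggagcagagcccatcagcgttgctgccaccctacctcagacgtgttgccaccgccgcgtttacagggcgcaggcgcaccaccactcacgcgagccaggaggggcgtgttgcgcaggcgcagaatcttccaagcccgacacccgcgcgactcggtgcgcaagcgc
Sdhb: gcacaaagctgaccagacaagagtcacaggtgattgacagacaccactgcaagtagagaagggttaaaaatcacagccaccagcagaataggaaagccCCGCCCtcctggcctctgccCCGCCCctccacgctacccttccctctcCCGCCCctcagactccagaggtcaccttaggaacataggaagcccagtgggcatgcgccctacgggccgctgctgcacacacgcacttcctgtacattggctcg
Uqcr10: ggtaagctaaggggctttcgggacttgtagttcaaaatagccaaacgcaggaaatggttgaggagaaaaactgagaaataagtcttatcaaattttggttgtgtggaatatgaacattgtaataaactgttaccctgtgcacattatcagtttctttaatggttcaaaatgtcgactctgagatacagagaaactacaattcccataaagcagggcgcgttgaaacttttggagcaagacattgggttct
Cox7a2l: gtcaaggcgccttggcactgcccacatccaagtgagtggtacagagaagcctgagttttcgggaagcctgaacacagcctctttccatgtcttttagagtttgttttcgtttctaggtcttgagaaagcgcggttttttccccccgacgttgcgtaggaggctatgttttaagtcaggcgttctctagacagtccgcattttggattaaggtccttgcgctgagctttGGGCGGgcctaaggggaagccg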

How the data were processed

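Poly(A) RNA of liver pieces was extracted with Trizol, made into libraries with Illumina Stranded mRNA Prep and sequenced as 2×150 paired ends on a NovaSeq X Plus, per the labels of the samples. The authors checked reads with FastQC 0.12.1, aligned them to mm10 with HISAT2 (2.21 in the sample labels, 2.2.1 in the methods) and deposited raw read counts per gene, made with featureCounts 2.0.8 and keyed by Entrez IDs; annotation and strand setting are not given in the sources used here. The 23 samples listed belong to 15 mice (8 named by 2 samples, 7 by 1), and the deposited counts hold 1 column per mouse, which was taken as the unit. All 15 columns came from the table of raw counts. A second deposited table repeats 10 of these columns under the same names, with 271790 of 271790 values equal, and its 5 columns headed by bare numbers were not used. Its columns of log2 fold change, logCPM, F, p-value and FDR hold the authors' comparisons of the same groups and were not used either.

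Counts of all 27179 genes were fitted in R 4.3.3 with edgeR 4.0.16 (TMM, robust quasi-likelihood F-test in its older form, limma 3.58.1), 1 coefficient per group, and p was adjusted by Benjamini-Hochberg over all genes. The stricter rule asked for an adjusted p under 0.01 and a change of at least 2-fold. CPM values use TMM library sizes, and log2 CPM values add a prior count of 2. Total counts per mouse were 24742910 to 32262649, so that 1 CPM would be about 25 to 32 reads before the TMM factors. Those factors, 0.846 to 1.24, multiply the reads that 1 CPM stands for in each mouse. Alternatives were DESeq2 1.42.0, its size factors, total counts, filterByExpr, the edgeR 4 quasi-likelihood, no robust estimation, fits on the compared groups only, the strain label or the clock score as a covariate, each mouse left out, and the 3 added ones named with the limits. Code was tested on simulated data.

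Per comparison and direction the 3 members with the largest called change were named, with core catalytic members, tissue isoforms, up to 4 genes per list and *Icmt*. Members, lists and markers were chosen with earlier results of these data known. Positions and promoters are those of RefSeq on GRCm38.p6. Lengths come from GENCODE vM21, and copies were sought with BLAST 2.17.0 among its transcripts at 97% identity or more over at least 25% of a member's length.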

Additional observations from a re-analysis of the deposited data

Results flagged for a closer look

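For 33 values (CPM of named members, summed CPM of each complex and of all, and the clock score) the gap from the most extreme mouse to the next was divided by the range of its group, in Ctrl and in ABpI F/+. In 3 of these 66 groups it passed the limit of Dixon's test for 6 mice, which chance alone passes in about 1 in 20. The clock score of the Ctrl mouse malpa387 was 0.05 (0.04614), where the next Ctrl mouse had -4.349 and the lowest -5.411. The CPM of *Cox7a2l* in the Ctrl mouse BG3 was 109.6, where the next Ctrl mouse had 78.62 and the lowest 65.51. The CPM of *Cox7b* in BG3 was 157.5, where the next Ctrl mouse had 117.1 and the lowest 94.18. The differences were not tested, and a different collection time, a different handling of the piece and a difference between mice cannot be told apart here.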

How the results depend on the processing

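Alternatives were 15 fits that each left out 1 mouse, 9 other settings set beforehand, and 3 settings chosen after seeing the data: leaving out BG3 and malpa387, leaving out BG3, malpa387 and BG38, and removing the trend with transcript length. The sums per complex were set against Ctrl without BG3 and malpa387 after seeing the data as well. Called values of named members kept direction and side of the threshold in 1273 gene-by-alternative values, kept direction but lost the call in 130 and reversed in 1, and values not called stayed so in 861, gained a call in 68 and moved without one in 16. The median of the members kept its sign in each comparison under every alternative. Scaling by total counts alone gave for ABpI F/+ against Ctrl 1 higher, 52 lower, 4 lower at the stricter rule, and for the mutants against each other 12 higher, 1 higher at the stricter rule, 1 lower at the stricter rule. The strain label as a covariate, which sets the mutants against the Ctrl mouse BG3 alone, gave for ABpI F/+ against Ctrl 1 higher, 38 lower, 15 lower at the stricter rule, median -0.78, and for ABpI F/F against Ctrl 57 lower at the stricter rule, median -1.30. The clock score as a covariate gave for ABpI F/+ against Ctrl 1 lower at the stricter rule, and for the mutants against each other 13 higher, 0 lower, median 0.81. Leaving out BG3 and malpa387 gave for ABpI F/+ against Ctrl 8 higher, 10 lower, 1 lower at the stricter rule, and for ABpI F/F against Ctrl 2 higher, 2 lower at the stricter rule, and for the mutants against each other 47 higher. Leaving out BG3, malpa387 and BG38 gave for ABpI F/+ against Ctrl 8 higher, 1 lower at the stricter rule, and for ABpI F/F against Ctrl 22 lower, 1 lower at the stricter rule, median -0.40, and for the mutants against each other 0 lower, 1 higher at the stricter rule. Removing the trend with transcript length gave for ABpI F/+ against Ctrl 1 higher, 51 lower, and for ABpI F/F against Ctrl 3 higher, 5 lower at the stricter rule, and for the mutants against each other 11 higher, 3 lower, 0 higher at the stricter rule, 1 lower at the stricter rule. DESeq2, the filterByExpr filter and the quasi-likelihood of edgeR 4 each gave 1 higher for ABpI F/F against Ctrl. These values reversed their sign: with the strain label *Atp5mc2* -0.030, *Ppara* 0.068 and *Clock* 0.25 for ABpI F/+ against Ctrl, and with the clock score *Bmal1* 0.92 for ABpI F/+ against Ctrl (1.32 without malpa387, and -0.54 to that value over all mice left out in turn), *Per3* 0.32 and *Per2* 0.99 for ABpI F/F against Ctrl, and *Bmal1* 0.24 and *Per2* -0.32 between the mutants. *Bmal1*, *Per2* and *Per3* are themselves part of the clock score, so their reversal with it as a covariate is not read as a result. With the strain label, the values not called of *Uqcr10* and *Uqcrh* for ABpI F/+ against Ctrl and of *Cox7a2l* for ABpI F/F against Ctrl went below 0, to -0.13, -0.12 and -0.23. Over all 27 alternatives, values not called also crossed 0 for other members. For ABpI F/+ against Ctrl, *Cox4i1*, *Cox8a* and *Cox7a1* reached 0.31, 0.26 and 0.08. Between the mutants, *Atp5me*, *Ndufs6b*, *Sdha*, *Cox6b1* and *Ndufs1* reached -0.38, -0.20, -0.17, -0.10 and -0.05. With total counts alone, calls of named members were lost by *Atp5mc2* for ABpI F/+ against Ctrl, and by *Atp5f1b*, *Cox4i1*, *Cox8a*, *Ndufa4* and *Ndufb9* between the mutants, and gained by *Atp5f1b*, *Atp5mc3*, *Cox5a*, *Cox7b*, *Ndufa4*, *Ndufv1*, *Sdhb* and *Uqcrfs1* for ABpI F/+ against Ctrl, and by *Uqcrh* for ABpI F/F against Ctrl. With the strain label as a covariate, calls of named members were lost by *Atp5f1a* and *Ndufs6b* for ABpI F/+ against Ctrl, and gained by *Atp5mc3*, *Cox7b*, *Ndufa4* and *Uqcrfs1* for ABpI F/+ against Ctrl, and by *Atp5mc2* and *Uqcrh* for ABpI F/F against Ctrl, and by *Ndufa5* between the mutants. With the clock score as a covariate, calls of named members were lost by *Ndufb9* for ABpI F/+ against Ctrl, and by *Cox7b* and *Ndufs6b* for ABpI F/F against Ctrl, and by *Atp5f1b*, *Cox5a*, *Ndufa4*, *Ndufa4l2*, *Ndufb9*, *Ndufv1*, *Sdhb* and *Uqcrfs1* between the mutants, and gained by *Uqcrh* for ABpI F/F against Ctrl. With the length trend removed, calls of named members were lost by *Atp5mc1* and *Atp5mc2* for ABpI F/+ against Ctrl, and by *Atp5mc2*, *Cox4i1*, *Cox5a*, *Cox8a*, *Ndufa4* and *Ndufb9* between the mutants, and gained by *Atp5f1b*, *Atp5mc3*, *Cox5a*, *Cox7b*, *Cox8a*, *Ndufa4* and *Uqcrfs1* for ABpI F/+ against Ctrl, and by *Cox7a2l* and *Uqcrh* for ABpI F/F against Ctrl. With BG3 and malpa387 left out, calls of named members were lost by *Atp5mc1*, *Cox6a1*, *Cox6b1*, *Ndufb9* and *Ndufs6b* for ABpI F/+ against Ctrl, and by *Cox4i1*, *Cox8a*, *Ndufs6b* and *Uqcr10* for ABpI F/F against Ctrl, and gained by *Uqcr10* and *Uqcrh* for ABpI F/+ against Ctrl, and by *Atp5mc3*, *Cox6a1* and *Ndufa5* between the mutants. With BG3, malpa387 and BG38 left out, calls of named members were lost by *Cox6a1*, *Cox6b1* and *Ndufb9* for ABpI F/+ against Ctrl, and by *Atp5mc3*, *Atp5me*, *Cox4i1*, *Cox6b1*, *Cox7b*, *Cox8a*, *Ndufa4*, *Ndufs6b* and *Uqcr10* for ABpI F/F against Ctrl, and by *Atp5f1b*, *Ndufa4* and *Ndufa4l2* between the mutants, and gained by *Uqcr10* and *Uqcrh* for ABpI F/+ against Ctrl. With the fit on the groups compared only, calls of named members were lost by *Uqcr10* for ABpI F/F against Ctrl, and gained by *Atp5f1b* and *Uqcrfs1* for ABpI F/+ against Ctrl, and by *Ndufa5* between the mutants. With DESeq2, calls of named members were gained by *Atp5f1b*, *Atp5mc3* and *Uqcrfs1* for ABpI F/+ against Ctrl, and by *Uqcrh* for ABpI F/F against Ctrl, and by *Atp5f1a* and *Ndufa5* between the mutants. With filterByExpr, calls of named members were gained by *Atp5f1b* and *Uqcrfs1* for ABpI F/+ against Ctrl, and by *Uqcrh* for ABpI F/F against Ctrl, and by *Atp5f1a* and *Ndufa5* between the mutants. With DESeq2 size factors in edgeR, calls of named members were lost by *Ndufa4* between the mutants. With no robust estimation, calls of named members were lost by *Ndufa4* between the mutants. Leaving out 1 mouse at a time gave, for ABpI F/+ against Ctrl, 1 to 5 higher, 14 to 25 lower, 1 to 1 higher at the stricter rule, 1 to 3 lower at the stricter rule, median -0.35 to -0.16. Leaving out 1 mouse at a time gave, for ABpI F/F against Ctrl, 0 to 1 higher, 28 to 64 lower, 0 to 0 higher at the stricter rule, 3 to 31 lower at the stricter rule, median -0.97 to -0.64. Leaving out 1 mouse at a time gave, for the mutants against each other, 5 to 34 higher, 0 to 1 lower, 1 to 4 higher at the stricter rule, 0 to 0 lower at the stricter rule, median 0.34 to 0.66. The cause was not tested for any of these differences, beyond that leaving out mice leaves fewer of them to test on. Only 3 mice carry the ABpI F/F genotype, and strain label and group differ together in 5 of 6 Ctrl mice. Members under 1 CPM hold few reads, and the calls of *Ndufs6b*, which is among them, rest on 400 counts over all mice.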
